A study of Homo sapiens with 9 samples.

Results

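Cathepsins are the proteases of the lysosome, and 10 genes of this family were followed in mesothelioma cells with and without hairpins against LSD1. The genes were CTSA, CTSB, CTSC, CTSD, CTSH, CTSK, CTSL, CTSO, CTSS and CTSZ, taken by gene symbol from the array annotation. Each was represented by 1 transcript cluster, the array's unit of measurement for a gene, so the 10 genes were 10 of the 21448 clusters tested. Despite the family's usual description as cysteine and aspartic proteases, CTSA is a serine carboxypeptidase. CTSD is an aspartic protease and the other 8 are papain-type cysteine proteases.

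The measurements came from 9 Clariom S arrays hybridized with RNA of ACC-MESO-1, a human cell line established from a pleural mesothelioma, the asbestos-linked cancer of the chest lining. All groups were cultures of this 1 line that had been infected to carry a short hairpin RNA: a control hairpin (replicates 1 to 3), shLSD1 #1 (replicates 4 to 6) or shLSD1 #2 (replicates 7 to 9), with 3 arrays each. LSD1 removes methyl groups from histone H3 within corepressor complexes, and the study asked what its suppression does to the mesenchymal character of mesothelioma. The sources used here do not give the hairpin sequences, the vector or the time after infection, and do not say whether replicates were separate cultures, so p-values measure the spread between arrays, which may be technical.

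Cathepsins are made as inactive precursors, tagged with mannose 6-phosphate in the Golgi, carried to the acidic lysosome by sorting receptors and activated there by removal of a propeptide. Proton pumping by the vacuolar ATPase sustains their activity, and cystatins inhibit the cysteine members. Besides degrading proteins taken up by the cell, they process antigens for MHC class II, and when secreted by tumour cells they can cleave extracellular matrix.

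All values are log2 signals. A gene was called above background on an array where it exceeded the 95th percentile of that array's 612 negative control probe sets, which lay between 6.93 and 7.54. Array medians lay between 6.39 and 6.43, and 42.0% to 46.2% of clusters were above background. The signal of 4 hybridization spike-in probe sets fell into a high class, from 11.2 to 11.4, and a low class, from 10.8 to 10.9. The 3 control arrays and shLSD1 #2 replicates 7 and 9 were in the high class. The 3 shLSD1 #1 arrays and shLSD1 #2 replicate 8 were in the low class, so class and group coincide between control and shLSD1 #1, and a fit blocked on the class takes its effect from the shLSD1 #2 arrays alone. The LSD1 transcript is not analysed here, and the extent of its knockdown was not checked. Of the labelled cell type's markers, mesothelin (MSLN) was above background on all 9 arrays, whereas 4 of 9 mesothelioma markers (CALB2, KRT5, UPK1B and BNC1) were below it on every array. KRT19 and PDPN were above it on 1 array each, and WT1 and UPK3B on hairpin arrays alone. All 5 lung epithelial markers were below background on every array.

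Promoter sequences are shown for the 2 cathepsins of the papain type that moved in opposite directions, CTSL and its closest relative CTSV, which lie on the same chromosome and which the RefSeq table also lists as CTSL1 and CTSL2. They are the 250 bases before the annotated start in RefSeq (GRCh38.p14), written 5′ to 3′ on the gene's strand. Capitals mark the longest run that both share, GCCGGCACAGCCAATCGCAGCGC, 23 bases that contain the letters CCAAT. The run starts 96 bases before the start of CTSL and 86 bases before that of CTSV.
CTSL, chr9:87725869-87726118, plus strand: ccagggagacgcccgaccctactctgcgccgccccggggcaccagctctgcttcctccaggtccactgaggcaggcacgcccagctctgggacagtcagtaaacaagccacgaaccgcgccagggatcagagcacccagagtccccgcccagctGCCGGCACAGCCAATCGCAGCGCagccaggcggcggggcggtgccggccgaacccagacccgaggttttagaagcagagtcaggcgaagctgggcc
CTSV, chr9:97039143-97039392, minus strand: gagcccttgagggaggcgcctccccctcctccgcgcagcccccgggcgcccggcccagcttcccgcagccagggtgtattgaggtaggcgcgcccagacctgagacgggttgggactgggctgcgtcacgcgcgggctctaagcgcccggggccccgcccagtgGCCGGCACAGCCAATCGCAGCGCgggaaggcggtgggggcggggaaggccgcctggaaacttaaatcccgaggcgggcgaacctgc
Of the 35116 promoters in the table, 2 held this run on either strand, those of CTSL and CTSV, from which it was taken. The letters CCAAT alone stood in 32.0% of the promoters, and among the cathepsins followed in those of CTSL and CTSC.

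A second pair is shown for CACGTG, the core of the element bound by TFEB, TFE3 and MITF, the transcription factors of lysosomal genes. Of the 6 cathepsins with a promoter in the table (CTSA, CTSC, CTSD, CTSH, CTSL and CTSZ), CTSA and CTSD held it, and capitals mark it here. It occurs at 42 and 25 bases before the start of CTSA, and at 47 bases before that of CTSD.
CTSA, chr20:45891085-45891334, plus strand: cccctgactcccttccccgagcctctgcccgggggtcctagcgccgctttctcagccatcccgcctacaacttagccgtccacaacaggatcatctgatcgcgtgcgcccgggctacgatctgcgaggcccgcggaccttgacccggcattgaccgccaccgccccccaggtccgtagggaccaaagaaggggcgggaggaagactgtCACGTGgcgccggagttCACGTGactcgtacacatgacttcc
CTSD, chr11:1763928-1764177, minus strand: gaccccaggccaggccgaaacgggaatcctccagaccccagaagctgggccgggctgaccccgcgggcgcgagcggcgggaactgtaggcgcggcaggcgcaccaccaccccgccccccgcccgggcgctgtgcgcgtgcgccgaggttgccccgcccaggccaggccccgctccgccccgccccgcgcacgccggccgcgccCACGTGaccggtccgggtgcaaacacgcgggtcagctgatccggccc
CACGTG was found in 6.34% of all promoters, and both genes with it appear below among those that did not pass the test. A form of the interferon-stimulated response element, GAAANNGAA on either strand, was in 6.88% of promoters and in 0 of these 6. The STAT element TTCNNNGAA was in 6.57% and likewise in 0 of the 6. A match describes letters in these windows and is not evidence of a site.

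Of the 10 cathepsins, CTSL fell with each LSD1 hairpin at signals above background. CTSS also passed the test in the lower direction with each, but below background on all 9 arrays, so that its difference is not a measured fall in transcript level. No cathepsin passed in the higher direction. The 2 of 10 called for shLSD1 #1 stood beside 15.8% of all clusters called in either direction (7.94% lower and 7.85% higher), by limma with Benjamini-Hochberg adjustment over all clusters and a threshold of 0.05. The 2 of 10 for shLSD1 #2 stood beside 13.2% (6.63% lower and 6.56% higher). Clusters lower with both hairpins were 5.32% of the total, and clusters higher with both 5.11%. The 2 comparisons share the 3 control arrays and are therefore not independent. The median change of the 10 genes was -0.04 for shLSD1 #1 and -0.19 for shLSD1 #2, against 0.03 and 0.02 over all clusters. Arrays of the hairpin and the control did not overlap for 4 of 10 cathepsins with shLSD1 #1, beside 35.0% of all clusters, and for 5 of 10 with shLSD1 #2, beside 32.1%. With so few genes, these shares are not read as a shift of the family.

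CTSL, an endopeptidase of lysosomes that is also secreted, was the clearest change. Control arrays read 13.66, 13.88 and 13.84. The shLSD1 #1 arrays read 12.67, 12.67 and 12.52, and the shLSD1 #2 arrays 12.41, 12.45 and 12.52. All 6 hairpin arrays lay below all 3 control arrays, and all 9 were above background. The means were 13.79 ± 0.114 (SD, n = 3) in control, 12.62 ± 0.088 with shLSD1 #1 and 12.46 ± 0.054 with shLSD1 #2. The change was -1.17 ± 0.11 (SE) with shLSD1 #1, a 2.26-fold lower signal (limma, adjusted p = 0.000132). With shLSD1 #2 it was -1.33 ± 0.11, a 2.52-fold lower signal (limma, adjusted p = 5.92e-05). What remained was 44.3% and 39.7% of the control signal. In RNA from whole cultures, fewer cells with the transcript and less transcript per cell cannot be told apart. In the order of all 21448 changes from the lowest up, CTSL stood at 304 for shLSD1 #1 and at 206 for shLSD1 #2. The call held in all 19 alternative fits for shLSD1 #1 and all 20 for shLSD1 #2, with changes of -1.24 to -1.12 and -1.40 to -1.28. These fits are not separate checks. For shLSD1 #2 the fit blocked on spike-in class gives the same result as the fit without replicate 8. Fits without an array of the hairpin not compared leave the change as it was. In the fit blocked on spike-in class, the shLSD1 #1 change was -1.16 (limma, adjusted p = 0.0318).

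**Figure D1:**
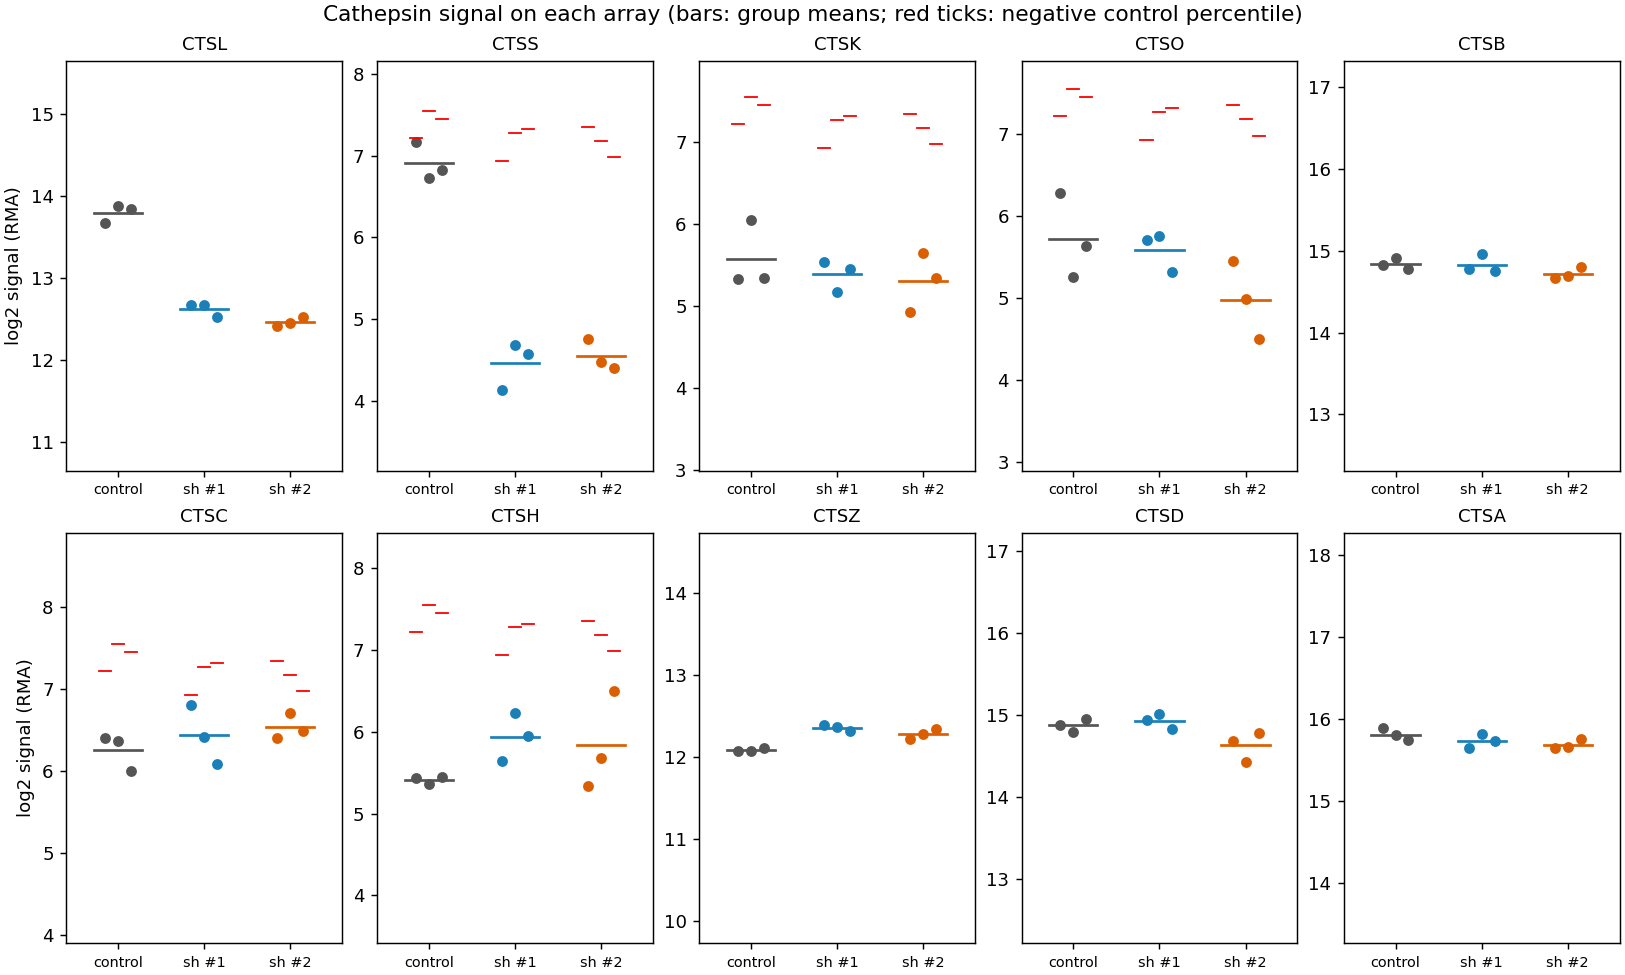
Log2 signal (vertical axis) of each of the 10 cathepsins on the 9 arrays, in 1 panel per gene, with points for arrays, bars for the means of 3 arrays and red ticks at each array's negative control percentile where the panel reaches it; every panel spans the same number of log2 units. CTSL fell from 13.79 in control to 12.62 and 12.46, while CTSA and CTSB each differed from control by -0.12 with shLSD1 #2.

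CTSS, an endopeptidase best known for trimming the invariant chain in antigen-presenting cells, had the largest difference in number, but at signals under the negative controls. It read 7.17, 6.73 and 6.83 on the control arrays. It read 4.14, 4.69 and 4.57 with shLSD1 #1 and 4.76, 4.49 and 4.41 with shLSD1 #2. Neither hairpin group overlapped with control, yet every array was below its own negative control percentile. The highest value, 7.17 on control replicate 1, missed that array's percentile of 7.22 narrowly. The difference was -2.44 ± 0.18 for shLSD1 #1 (limma, adjusted p = 3.34e-05) and -2.36 ± 0.18 for shLSD1 #2 (limma, adjusted p = 3.76e-05). No fold is given because no group had a measured level above background. Raising values to the negative control level of 7.25 leaves a difference of 0 by construction, because every CTSS array lies below it, and so gives no test of the call. In the other alternatives it passed, and in the fit blocked on spike-in class the shLSD1 #1 difference was -2.35 (limma, adjusted p = 0.0159). CTSS and CTSK are neighbouring genes on chromosome 1 in the RefSeq table.

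CTSK, the collagen-degrading endopeptidase of osteoclasts, did not pass the test with either hairpin. Its control arrays read 5.33, 6.05 and 5.34, those of shLSD1 #1 5.54, 5.17 and 5.45, and those of shLSD1 #2 4.93, 5.65 and 5.34. The groups overlapped and all arrays were below background. The differences were -0.18 ± 0.24 (limma, adjusted p = 0.661) and -0.26 ± 0.24 (limma, adjusted p = 0.552).

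CTSO, a cysteine protease whose substrates are little known, also stayed below background on all 9 arrays. Control arrays read 6.28, 5.26 and 5.63, shLSD1 #1 arrays 5.71, 5.75 and 5.32, and shLSD1 #2 arrays 5.45, 4.98 and 4.50. The shLSD1 #2 values sat low but overlapped with the control range. The differences were -0.13 ± 0.29 (limma, adjusted p = 0.808) and -0.75 ± 0.29 (limma, adjusted p = 0.140), the latter with a 95% interval from -1.41 to -0.09 before adjustment for the number of clusters.

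Among the exopeptidases, CTSZ, a carboxypeptidase also known as cathepsin X, stood slightly higher in every hairpin array. Its control arrays agreed closely, at 12.08, 12.07 and 12.11. The shLSD1 #1 arrays read 12.39, 12.37 and 12.32, and the shLSD1 #2 arrays 12.22, 12.29 and 12.34. All 6 hairpin arrays were above all 3 control arrays, but the size was small, 0.27 ± 0.099 with shLSD1 #1 (1.21-fold; limma, adjusted p = 0.0966) and 0.20 ± 0.099 with shLSD1 #2 (limma, adjusted p = 0.252). Neither passed the threshold. For shLSD1 #1 it passed in 3 of 19 alternatives: without the dimmest clusters (0.0417), with a trended robust prior (0.0191) and with values raised to the negative controls (0.00566). For shLSD1 #2 it passed in 1 of 20, with values raised (0.0211). CTSZ lay above the raised level on every array, so raising values left its changes at 0.27 and 0.20. Only the SE moved, from 0.099 to 0.036, so these 2 passes give no separate check of the CTSZ values. Adjusted p over all alternatives ran from 0.00566 to 0.572 and from 0.0211 to 0.414.

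CTSB, which acts as both a carboxydipeptidase and an endopeptidase, read 14.83, 14.91 and 14.77 in control. It read 14.78, 14.95 and 14.75 with shLSD1 #1 and 14.67, 14.69 and 14.79 with shLSD1 #2. The 3 groups overlapped, all of them above background. The changes were -0.01 ± 0.11 (95% interval -0.26 to 0.23) and -0.12 ± 0.11 (-0.36 to 0.13), so a fall as large as that of CTSL lies outside both intervals. Adjusted p by limma was 0.958 and 0.564.

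CTSC, the dipeptidyl aminopeptidase that activates serine proteases of granules, was below background throughout. Control arrays read 6.40, 6.36 and 5.997, those of shLSD1 #1 6.81, 6.42 and 6.09, and those of shLSD1 #2 6.41, 6.71 and 6.49. The shLSD1 #2 arrays were all above the control arrays, the lowest of them narrowly. The differences were 0.18 ± 0.19 (limma, adjusted p = 0.584) and 0.28 ± 0.19 (limma, adjusted p = 0.421).

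CTSH, an aminopeptidase, was likewise below background throughout. It read 5.43, 5.37 and 5.44 in control, 5.64, 6.23 and 5.95 with shLSD1 #1, and 5.34, 5.67 and 6.50 with shLSD1 #2. The shLSD1 #1 arrays were all above the control arrays and the shLSD1 #2 arrays were not. The differences of 0.53 ± 0.27 and 0.43 ± 0.27 did not pass (limma, adjusted p = 0.230 and 0.370). The shLSD1 #2 difference rests on replicate 9, the array at 6.50, without which it was 0.095.

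CTSD, the aspartic protease of lysosomes and an oestrogen-regulated marker in breast cancer, was the 1 cathepsin whose arrays separated the hairpins. Control arrays read 14.87, 14.79 and 14.96. They compare with 14.94, 15.01 and 14.83 for shLSD1 #1 and 14.68, 14.42 and 14.78 for shLSD1 #2. The shLSD1 #2 arrays lay below all arrays of the other groups, with replicate 9 at 14.78 against 14.79 for the lowest control array. The change was 0.05 ± 0.13 with shLSD1 #1 (limma, adjusted p = 0.824) and -0.25 ± 0.13 with shLSD1 #2 (limma, adjusted p = 0.260). With a trended robust prior the latter reached an adjusted p of 0.0425 and was called, the 1 of 20 alternatives in which it passed, with a range up to 0.580.

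CTSA, the protective protein that stabilizes beta-galactosidase and neuraminidase in lysosomes, showed no change past the test. Control arrays read 15.88, 15.80 and 15.74, shLSD1 #1 arrays 15.65, 15.82 and 15.73, and shLSD1 #2 arrays 15.65, 15.65 and 15.75. The groups overlapped. The changes were -0.08 ± 0.11 (95% interval -0.31 to 0.16; limma, adjusted p = 0.686) and -0.12 ± 0.11 (-0.36 to 0.11; limma, adjusted p = 0.526).

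**Figure D2:**
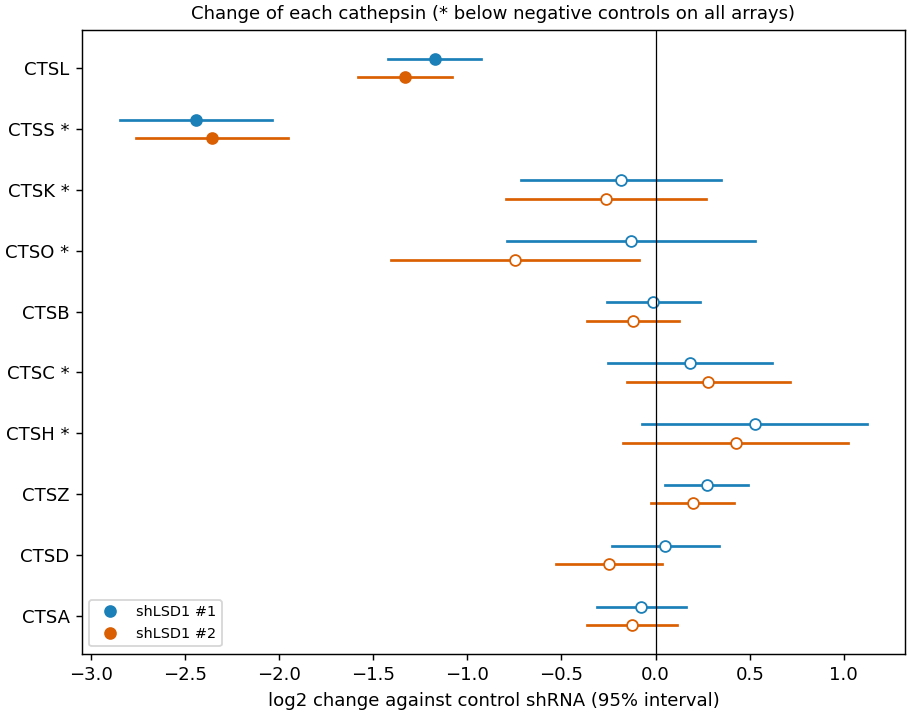
Log2 change (horizontal axis) of each cathepsin with shLSD1 #1 and with shLSD1 #2 against control, with 95% intervals from the limma fit, filled points for changes past the adjusted threshold and asterisks at the 5 genes that no array placed above background. The intervals of CTSL and CTSS lie wholly below 0 for both hairpins, with CTSL at -1.17 and -1.33 and CTSS at -2.44 and -2.36.

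The spread between replicates differed with signal. For the 5 cathepsins above background on all 9 arrays (CTSA, CTSB, CTSD, CTSL and CTSZ), the SD within a group ran from 0.020 to 0.186 with a median of 0.073. For the 5 that were below it on all 9 (CTSC, CTSH, CTSK, CTSO and CTSS), it ran from 0.041 to 0.597 with a median of 0.290. The second set can therefore show only larger differences, and a difference among its members is not a measured difference in transcript level.

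Between the 2 hairpins, 0 of 10 cathepsins differed after adjustment, and 0% of all clusters did. At an unadjusted p under 0.05, CTSD differed (1 of 10), against 7.87% of all clusters, and its arrays did not overlap, as was true of 13.3% of all clusters. Its difference, shLSD1 #1 minus shLSD1 #2, was 0.30 ± 0.13 with a 95% interval from 0.02 to 0.58 (limma, adjusted p = 0.622). For CTSL the difference was 0.16 ± 0.11 (interval -0.09 to 0.41; limma, adjusted p = 0.761), and for CTSO 0.61 ± 0.29 (-0.04 to 1.27; limma, adjusted p = 0.657). For CTSS it was -0.09 ± 0.18 (-0.49 to 0.32; limma, adjusted p = 0.937). These intervals do not show that the hairpins act alike on any of them.

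The clusters whose values followed CTSL most closely over the 9 arrays were MFGE8 (Pearson r = 0.998), APOL1 (r = 0.996) and ISG15 (r = 0.995), ranked among 8611 named clusters above background on at least 3 arrays. MFGE8 encodes a secreted bridging protein for apoptotic cells, APOL1 an apolipoprotein and ISG15 a ubiquitin-like modifier. MFGE8 differed from control by -1.15 with shLSD1 #1 and -1.34 with shLSD1 #2 (limma, adjusted p = 9.79e-05 and 3.76e-05). APOL1 differed by -2.43 and -2.70 (limma, adjusted p = 3.02e-06 and 1.32e-06), and ISG15 by -3.26 and -3.51 (limma, adjusted p = 4.59e-06 and 3.26e-06). Such an r is common where groups differ: 752 clusters (8.73%) had r of 0.9 or more with CTSL, and all were measured on these same 9 arrays, of which 3 are controls. The 3 clusters were picked for their likeness to CTSL on these arrays. That they are lower with both hairpins follows from the choice, and their adjusted p are no separate evidence.

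The genes around the cathepsins were read from 8 lists covering other cathepsins, inhibitors, sorting, acidification, further lysosomal proteins, lysosomal transcription factors and MHC class II. Of their 86 measured genes, 18 (20.9%) passed the test with shLSD1 #1 and 17 (19.8%) with shLSD1 #2, beside the 15.8% and 13.2% of all clusters given above, and 0 differed between the hairpins. The lists are not matched to all clusters in signal. Above background on all 9 arrays were 15 of 15 vacuolar ATPase genes, 15 of 20 lysosomal hydrolases and 0 of 7 MHC class II genes. Over all clusters, 42.0% to 46.2% were above it on an array. The part of signal in these shares was not tested. Leaving out shLSD1 #1 replicate 4 lowered the shLSD1 #1 count to 11. Leaving out control replicate 1, control replicate 2 or shLSD1 #2 replicate 7 lowered the shLSD1 #2 count to 11. In the fit blocked on spike-in class, 1 of the 86, MITF, passed for shLSD1 #1, and the other 17 shLSD1 #1 calls were lost. All 17 kept their sign there, and the median SE was 0.24 against 0.14. For 13 of them the blocked change was as large, larger or smaller by less than 1.5 times, such as GNPTAB at 0.96, SORL1 at 1.44, ATP6V1B2 at -1.10 and TPP1 at -1.02. For the other 4 it was smaller by more than that: CTSV at 0.55, CST3 at -0.69, ARSB at 0.21 and MAN2B1 at -0.38. For the genes of these 8 lists that were named by rule, the adjusted p of that fit for shLSD1 #1 is given as the blocked adjusted p.

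Of the 5 other cathepsins, CTSV rose and CTSE was lower, beside 5.11% of all clusters higher and 5.32% lower with both hairpins. CTSV is the endopeptidase nearest to CTSL in sequence, found mainly in thymus, testis and cornea. It read 9.72, 9.97 and 9.82 in control, 10.78, 10.85 and 10.37 with shLSD1 #1, and 10.62, 11.00 and 10.82 with shLSD1 #2. All 6 hairpin arrays lay above all control arrays and above background, the opposite direction to CTSL. It rose 1.78-fold with shLSD1 #1 (0.83 ± 0.16; limma, adjusted p = 0.00699; blocked adjusted p = 0.421) and 1.97-fold with shLSD1 #2 (0.98 ± 0.16; limma, adjusted p = 0.0034). Whether probes of the 2 relatives bind each other's transcript was not tested. CTSE, an aspartic protease of gastric and immune cells, differed by -0.91 and -0.98 (limma, adjusted p = 0.00921 and 0.00748; blocked adjusted p = 0.179 for shLSD1 #1) but was below background on every array. CTSF, CTSG and CTSW were below background too and did not pass.

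Of the 9 cystatin genes, 1 fell with both hairpins, beside 5.32% of all clusters, and 8 did not pass with either. CST3 encodes cystatin C, the main secreted inhibitor of cysteine cathepsins. Its control arrays read 13.49, 13.43 and 13.41, those of shLSD1 #1 12.11, 12.29 and 12.29, and those of shLSD1 #2 12.63, 12.15 and 12.71. Every hairpin array was lower than every control array. CST3 was 2.32-fold lower with shLSD1 #1 (-1.22 ± 0.15; limma, adjusted p = 0.000757; blocked change -0.69, blocked adjusted p = 0.137) and 1.92-fold lower with shLSD1 #2 (-0.94 ± 0.15; limma, adjusted p = 0.00338). CSTB, the cytosolic cystatin B, was the 1 other cystatin above background on all arrays and differed by -0.19 ± 0.11 with each hairpin (limma, adjusted p = 0.284 and 0.306). The other 7 were below background on all arrays. The list's median change was 0.09 and -0.03.

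Of 13 sorting and activation genes, 2 passed with shLSD1 #1 and 3 with shLSD1 #2, all in the higher direction, beside 7.85% and 6.56% of all clusters. The list's medians were 0.14 and 0.28. Arrays lay wholly below control for 2 genes and wholly above for 5 with shLSD1 #1, and for 2 and 6 with shLSD1 #2. Over all clusters, arrays did not overlap in either direction for 35.0% and 32.1%. The retromer genes were mixed, and none of them passed. VPS35 was below control on all hairpin arrays (-0.36 and -0.32; limma, adjusted p = 0.0893 and 0.142). VPS26A was above it on all of them (0.37 and 0.37; limma, adjusted p = 0.0566 and 0.0614). VPS29 differed by -0.17 and -0.20 (limma, adjusted p = 0.417 and 0.394). GNPTAB, the enzyme subunit that starts the mannose 6-phosphate tag, averaged 7.48 ± 0.242 in control, 8.41 ± 0.171 with shLSD1 #1 and 8.63 ± 0.024 with shLSD1 #2. It rose by 0.93 ± 0.15 (limma, adjusted p = 0.00245; blocked adjusted p = 0.140) and 1.15 ± 0.15 (limma, adjusted p = 0.000799). SORL1, a sorting receptor of the VPS10 family, rose by 1.25 ± 0.16 (limma, adjusted p = 0.000914; blocked adjusted p = 0.0559) and 0.78 ± 0.16 (limma, adjusted p = 0.0120). LGMN, the asparaginyl endopeptidase that cuts cathepsin precursors, passed for shLSD1 #2 (0.47; limma, adjusted p = 0.0422) and not for shLSD1 #1 (0.40; 0.0705). Its call held in 2 of the 9 fits that each left out 1 array, and both left out an shLSD1 #1 array. Such an array is outside this comparison, and leaving it out does not move the change. The LGMN call was lost without any 1 control or shLSD1 #2 array. The mannose 6-phosphate receptors did not pass: M6PR differed by 0.18 and 0.28 (limma, adjusted p = 0.246 and 0.0959), and IGF2R had adjusted p of 0.994 and 0.251, with a difference of -0.29 for shLSD1 #2.

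Of 15 vacuolar ATPase subunits, 2 were lower with both hairpins, beside 5.32% of all clusters. ATP6V1B2, a subunit of the ATP-hydrolysing head, fell by 1.15 ± 0.14 and 1.01 ± 0.14 (limma, adjusted p = 0.000571 and 0.00125; blocked adjusted p = 0.0869 for shLSD1 #1). ATP6V0E1, a membrane-sector subunit, fell by 0.79 and 0.56 (limma, adjusted p = 0.000725 and 0.00513; blocked adjusted p = 0.0917 for shLSD1 #1). Using arrays of the high spike-in class alone, the ATP6V0E1 call for shLSD1 #2 was lost at 0.0528. Named after their values were seen, ATP6V0D1 (0.37, adjusted p = 0.0406) and ATP6V1C1 (0.52, 0.0235) were higher with shLSD1 #1, and ATP6V1D (0.51, 0.0291) with shLSD1 #2, by limma. These calls held in 1, 4 and 5 of the 9 fits that each left out 1 array. The counts include fits without an array of the hairpin not compared, which leave the change as it was. ATP6V0D1 held in such a fit alone. ATP6V1C1 otherwise held only without shLSD1 #1 replicate 6, and ATP6V1D only without control replicate 3 or shLSD1 #2 replicate 9. The subunits thus moved in both directions, with a median change of 0.09 for each hairpin.

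Among 20 other lysosomal hydrolases, 3 were higher and 4 lower with shLSD1 #1, and 2 were higher and 3 lower with shLSD1 #2. Over all clusters, 15.8% and 13.2% were called in either direction. Whether this or any other list exceeds the share of all clusters was not tested. ASAH1, acid ceramidase, rose by 0.60 ± 0.11 and 0.80 ± 0.11 (limma, adjusted p = 0.00468 and 0.00109; blocked adjusted p = 0.274 for shLSD1 #1). MANBA, beta-mannosidase, rose by 0.62 ± 0.12 and 0.66 ± 0.12 (limma, adjusted p = 0.00589 and 0.00497; blocked adjusted p = 0.349). TPP1, a lysosomal tripeptidyl peptidase, fell by 0.66 and 0.74 (limma, adjusted p = 0.0186 and 0.0121; blocked adjusted p = 0.0967). Its shLSD1 #1 call was lost without control replicate 1 (0.0636), control replicate 3 (0.0673) or shLSD1 #1 replicate 4 (0.0691), and its shLSD1 #2 call at 0.0508 without the array of widest spread in each hairpin group. Named after their values were seen, GLA and MAN2B1 were lower with both hairpins, with changes of -0.46 and -0.43 for GLA and of -0.58 and -0.52 for MAN2B1. Their adjusted p by limma lay between 0.0232 and 0.0433, and the 4 calls held in 1 to 6 of the 9 fits that each left out 1 array. The 1 was GLA with shLSD1 #2, whose call held only without an shLSD1 #1 array, outside that comparison. ARSB (0.48, adjusted p = 0.0344) and LIPA (-0.36, 0.0400) passed by limma for shLSD1 #1 and not for shLSD1 #2, but did not differ between the hairpins past the threshold (0.735 and 0.738). They held in 5 and 1 of those 9 fits. Both counts include fits without an shLSD1 #2 array, outside the comparison, and for LIPA that was the only one.

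Of 12 lysosomal membrane and saposin genes, 0 passed with shLSD1 #1 by limma, beside 15.8% of all clusters. With shLSD1 #2, 2 were lower, beside 6.63% of all clusters: the tetraspanin CD63 (-0.39; limma, adjusted p = 0.0353) and the cholesterol exporter NPC1 (-0.39; 0.0482). They held in 2 and 0 of the 9 fits that each left out 1 array. The 2 for CD63 left out an shLSD1 #1 array, outside this comparison, and its call was lost without any 1 control or shLSD1 #2 array. LAMP1 and LAMP2, the major membrane glycoproteins, differed by -0.23 and -0.11 with shLSD1 #1 and by -0.16 and -0.04 with shLSD1 #2, with adjusted p between 0.501 and 0.848 by limma. The list's medians were -0.19 and -0.20.

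**Figure D3:**
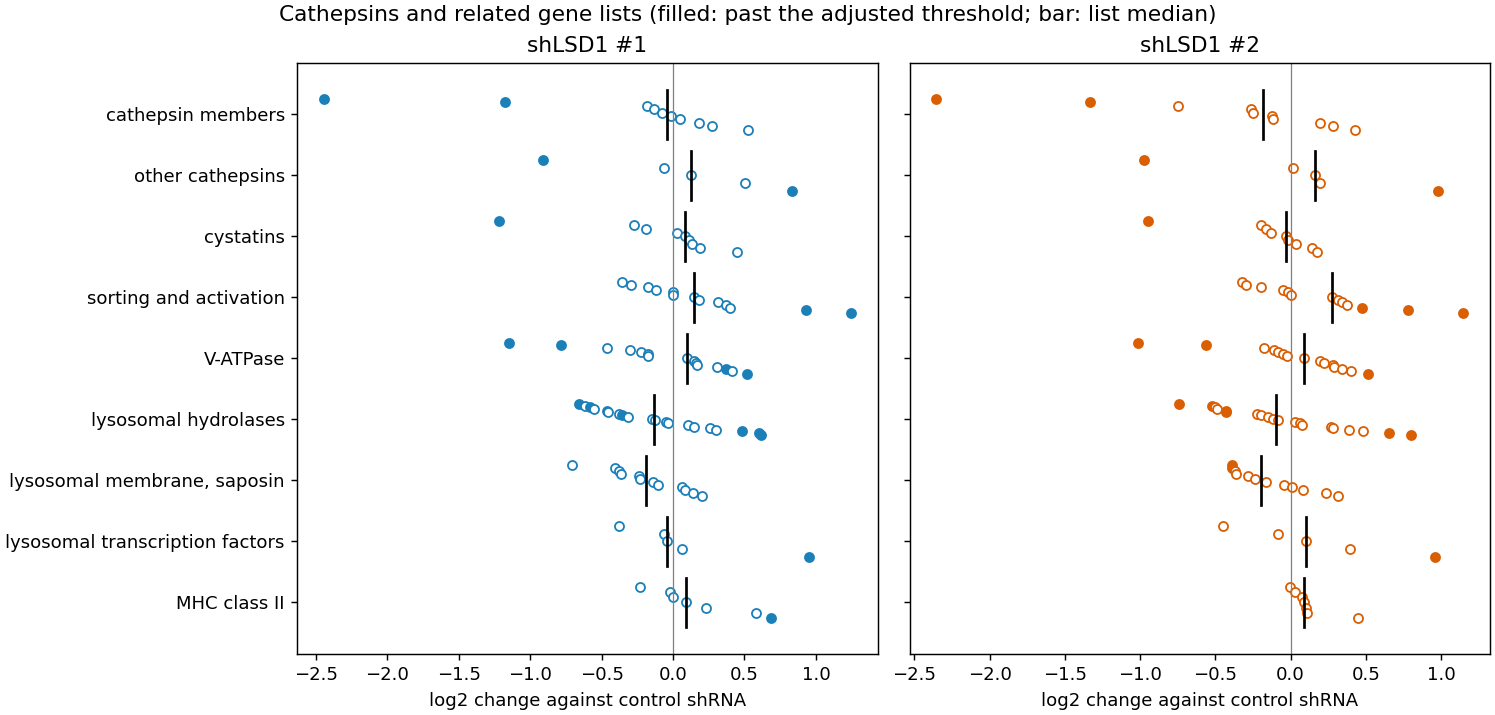
Log2 change against control (horizontal axis) of every measured gene in the cathepsin set and the 8 lists around it, with shLSD1 #1 in the left panel and shLSD1 #2 in the right, genes past the adjusted threshold filled and a bar at each list's median. Called genes lie on both sides of 0 in the vacuolar ATPase and hydrolase lists, and on the upper side alone in the sorting list.

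Among 5 transcription factors of lysosomal genes, MITF rose with both hairpins, as did 5.11% of all clusters. Its means were 9.57 ± 0.102 in control, 10.53 ± 0.091 with shLSD1 #1 and 10.53 ± 0.052 with shLSD1 #2. It rose 1.93-fold and 1.94-fold (limma, adjusted p = 0.000416 and 0.000426), and the shLSD1 #1 call held in the fit blocked on spike-in class (0.0436). TFE3 differed by -0.38 and -0.45 (limma, adjusted p = 0.119 and 0.0820), and TFEB was below background on all arrays.

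The MHC class II genes, whose loading CTSS serves in other cells, were below background on all 9 arrays for all 7 genes measured. By limma 1 of the 7, HLA-DMA, passed with shLSD1 #1 (0.69, adjusted p = 0.0133; blocked adjusted p = 0.100) and 0 with shLSD1 #2, beside 15.8% and 13.2% of all clusters. Its call was lost without shLSD1 #1 replicate 4 (0.0528), and no array measured it above background.

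CTSS and CD68 are also read as macrophage genes, so the macrophage markers stand beside the cathepsins. Of 11 markers, 8 were below background on all arrays, PTPRC, CD14 and LYZ among them. The other 3 were CD68 and CSF1R, above background on all 9, and TYROBP, above it on 2 arrays of shLSD1 #1. CSF1R averaged 7.96, 7.89 and 7.99 in the 3 groups (limma, adjusted p = 0.816 and 0.932). The mean of the list lay between 5.28 and 5.45 on control arrays, 5.27 and 5.40 with shLSD1 #1, and 5.17 and 5.43 with shLSD1 #2. The 1 marker that passed was CD68, which encodes a lysosomal membrane glycoprotein and fell by 1.11 ± 0.14 and 1.35 ± 0.14 (limma, adjusted p = 0.000649 and 0.000218). Of the 9 mesothelioma markers, 3 were higher and 1 lower with each hairpin, beside the 15.8% and 13.2% of all clusters called. The lower one was MSLN, with changes of -0.85 and -0.95 (limma, adjusted p = 0.00729 and 0.00482; blocked change -0.33, blocked adjusted p = 0.573 for shLSD1 #1). The higher ones were WT1 (0.84 and 0.75), UPK3B (1.33 and 1.34) and UPK1B (0.76 and 0.90), and all 3 were below background on the control arrays. UPK1B was below it on all 9 arrays, and UPK3B with values raised to the negative controls differed by 0.35 and 0.36 and did not pass (limma, adjusted p = 0.239 and 0.241). Their shLSD1 #1 calls were lost in the blocked fit (limma, adjusted p = 0.561, 0.167 and 0.462). The shLSD1 #2 call of WT1 was lost without control replicate 2 (0.0714), shLSD1 #2 replicate 8 (0.107) or replicate 9 (0.0687). The part of these markers in the cathepsin values was not tested.

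**Figure D4:**
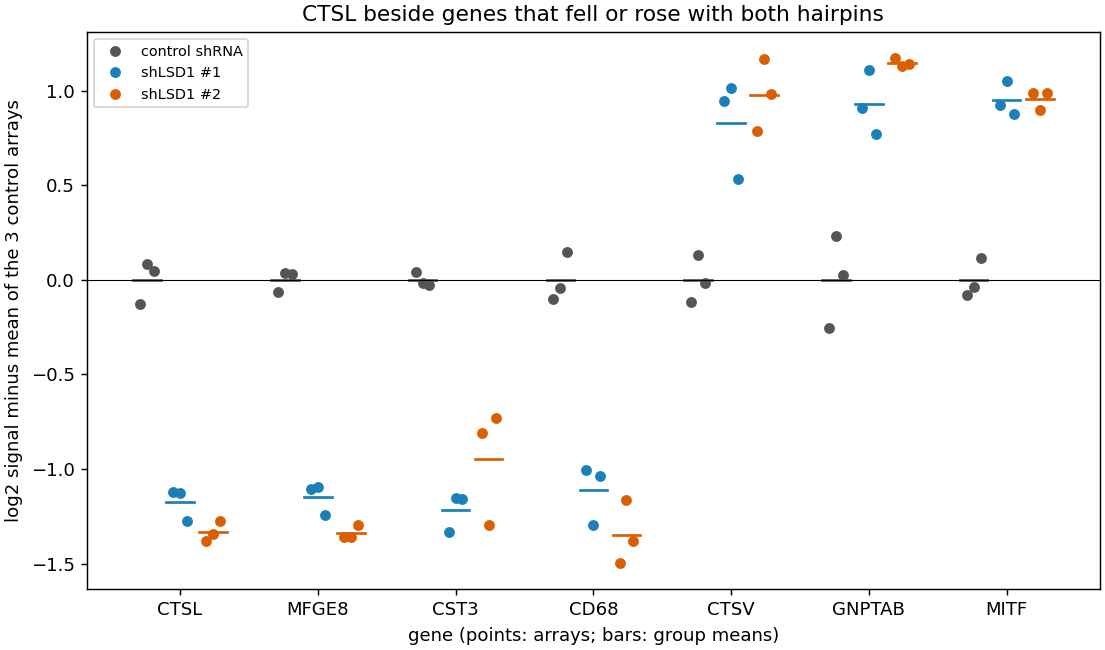
Log2 signal minus the mean of the 3 control arrays (vertical axis) for CTSL and 6 genes named in the text, with points for arrays and bars for group means. CTSL, MFGE8, CST3 and CD68 lie below 0 on all 6 hairpin arrays, and CTSV, GNPTAB and MITF above 0; CTSV changed by 0.83 and 0.98, CTSL by -1.17 and -1.33.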

How the data were processed

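The deposited values are log2 signal intensities that the authors made by RMA in Affymetrix Expression Console 1.4, per the submitters' processing notes, from 100 ng of RNA per array. No source states the log base, and 2, the default of RMA, was assumed. Of 24351 probe sets, 2903 controls were set aside and 21448 transcript clusters tested without a filter. The array annotation gave 17709 of them 1 symbol and 3739 none. limma 3.58.1 (R 4.3.3) fitted the 3 groups together without a trend, and two-sided p-values received a Benjamini-Hochberg adjustment across all clusters, with 0.05 as threshold. The script was tested on simulated data. The number of arrays limits the precision. Alternatives were other normalizations, filters, priors and weights, fits of the compared groups, omitted arrays, the spike-in class as a block or as a subset, and values raised to 7.25, the mean negative control percentile.

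The members, lists and tests were chosen with earlier results of these data known. Named genes were the 10 cathepsins, up to 3 per list past the test with both hairpins, and the 3 clusters most correlated with CTSL. Others were named after their values were seen or stand as the list's best-known members. VPS35, VPS26A, VPS29, LGMN, CD63, NPC1, ARSB, LIPA and HLA-DMA are among those named afterwards. Promoters are from RefSeq. The LSD1 transcript and 13 list genes are not analysed here. Figures were drawn with matplotlib 3.10.9.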

Additional observations from a re-analysis of the deposited data

How the results depend on the processing

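The falls of CTSL with both hairpins passed in every alternative run, though these runs share arrays and are not separate checks. Of 580 cathepsin values under alternatives, 556 kept their direction and side of the threshold, 17 changed direction, 2 lost and 5 gained a call. The 2 lost calls are those of CTSS with values raised to the negative controls, where differences of 0 follow from every CTSS array lying below that level and test nothing. Its contrast between hairpins ran from -0.20 to 0.079 when 1 array was left out. Clusters changed with shLSD1 #1 numbered 399 in the fit blocked on spike-in class, those changed with shLSD1 #2 numbered 1450 on arrays of the high class alone, and those differing between hairpins numbered 42 with the trended robust prior. Of the 86 related genes, the prior gave 28 and 26 calls, the block 1 for shLSD1 #1, the high class 10 for shLSD1 #2, and leaving out 1 array 11 to 19 and 11 to 15. The cause of these moves was not tested.

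Directions that turned were all of values not past the test. For shLSD1 #1 they were CTSA at 0.021 after a second quantile normalization, and with the block CTSB at 0.026, CTSC at -0.080 and NPC1 at 0.051. Leaving out 1 array gave, for shLSD1 #1, -0.076 to 0.029 (CTSB), -0.0018 to 0.36 (CTSC), -0.31 to 0.054 (CTSK) and -0.37 to 0.15 (CTSO). For HLA-DMA with shLSD1 #2 it gave -0.0058 to 0.21. Between hairpins it gave -0.28 to 0.077 (CTSC), -0.15 to 0.43 (CTSH) and -0.11 to 0.25 (CTSK), and the block gave -0.26 for CTSK. A total of 12 list medians moved by more than their typical standard error. The fit without the array of widest spread in each hairpin group was chosen after seeing the data. For shLSD1 #1, no fit on arrays of the high class was possible because that group has none there. No paired analysis was possible because the groups share no replicate numbers. The 5 cathepsins below the negative controls have no measured level, so their differences set no bound.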
